A study of Mus musculus with 12 samples.

Results

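The response of cultured mouse oligodendrocyte precursor cells (OPCs) to 6 h of IFN-γ alone was measured in 6 of the 12 bulk RNA-seq libraries of the series, 3 exposed to the cytokine and 3 left without it. Members were chosen by their labels: all 6 carry no EZH2 inhibitor (0 µM), and the other 6 libraries of the series carry 1.5 µM of it. The untreated libraries are called Ctr and the IFN-γ libraries IFNg, each with replicates 1, 2 and 3. The cytokine was given at 100 ng/ml, and the labels name no vehicle for the controls. Both groups came from P4 to P6 pups of a Sox10:Cre line crossed to a reporter that turns on GFP wherever the recombinase has been active, which marks the whole oligodendrocyte lineage and not OPCs alone. The labels call the cells Sox10GFP+ OPCs, while the protocol allows either sorting for that GFP or bead selection for CD140a. Brains of several pups were pooled for each culture, the replicates came from different litters, and both groups were grown in medium with PDGF-AA and bFGF. The labels also carry the mouse model tag EAE, although the protocol describes no immunization of the pups. The number of genes analysed was 55536, of which 18995 passed the filter on low counts and were tested. The filter asks for enough counts in only as many libraries as a group holds. A gene near 0 in Ctr was thus tested only where other libraries held enough counts. Members low in every group are left out, so list counts over tested members lean toward rises.

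IFN-γ is the type II interferon, made mainly by T cells and natural killer cells. It binds the receptor chains IFNGR1 and IFNGR2, which activate the kinases JAK1 and JAK2, and the signal reaches the nucleus at gamma-activated sites (GAS) in DNA. Among the direct targets are other transcription factors, including IRF1, which acts at interferon-stimulated response elements (ISRE), and the coactivators CIITA and NLRC5, which switch on MHC class II and class I genes. OPCs are the dividing progenitors of the myelin-forming oligodendrocytes, and in healthy brain neither cell carries much MHC.

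Total counts per library were 29671054, 17403896 and 56969347 in Ctr and 31769490, 37287081 and 66546017 in IFNg, a span of 3.82 times from the shallowest to the deepest. The Ctr replicate 2 library was the shallowest, which makes low Ctr values in it the least precise. Levels are given below as CPM, which are counts scaled to a common library size with TMM factors, and levels of different genes are compared only as TPM, which corrects for transcript length. The share of counts from mitochondrial and ribosomal RNA genes was 11.4% to 16.5% in Ctr and 8.70% to 10.9% in IFNg, so it moved with the groups. Its part in the results was not tested beyond refitting without those genes, which called 1205 higher and 423 lower genes. A first principal component with 61.3% of the variance separated the groups, and a second with 21.7% followed the replicate number. In bulk RNA, fewer cells of a type and less RNA per cell cannot be told apart.

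All lineage markers of OPCs were present in both groups. The 11 OPC markers summed to 1080 to 1860 TPM in Ctr and 1280 to 1470 TPM in IFNg, and the 10 oligodendrocyte markers to 542 to 761 TPM and 557 to 723 TPM. Astrocyte markers were also present, at 275 to 562 TPM in Ctr and 312 to 543 TPM in IFNg, with Gfap highest in replicate 3 of both groups. Blood-derived and microglial cells were close to absent. Microglial or macrophage markers summed to 2.95 to 6.08 TPM in Ctr and 5.29 to 5.89 TPM in IFNg, with C1qa and Tyrobp at 0 in all 6 libraries. The T and NK cell markers summed to 0.0575 to 0.289 TPM in Ctr and 0.044 to 0.366 TPM in IFNg, with Cd3d, Cd3e, Cd3g and Nkg7 at 0 in all 6. Endothelial markers summed to 1.88 to 2.57 TPM and 2.22 to 3.37 TPM. None of the tested OPC, oligodendrocyte, astrocyte, microglial or endothelial markers rose, and 2 of 11 OPC markers (Pdgfra and Cspg4) and 1 of 10 astrocyte markers (Fgfr3) fell. Over all tested genes, 6.65% were called higher and 2.1% lower. The replicate block also called Gfap (log2FC 0.65) and P2ry12 (0.94), an astrocyte and a microglial marker, higher, and Slc4a4, Vcan, C1ql1 and Olig2 lower. P2ry12 was at most 1.16 CPM in any of the 6 libraries. The Fgfr3 call held without Ctr replicate 1 and was lost in the other 5 fits that left out a library.

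The transcriptome response was dominated by genes that rose. At an adjusted p under 0.05 (edgeR's quasi-likelihood test, Benjamini-Hochberg adjustment over all genes tested, used for every adjusted p below), 1264 genes were higher with IFN-γ (6.65% of those tested) and 399 were lower (2.1%). The log2 fold change (log2FC) had a median of 1.71 among higher genes and of -0.90 among lower genes, beside 0.00 over all tested genes. Of the higher genes, 890 (70.4%) changed more than 2-fold, 309 more than 10-fold and 112 more than 100-fold. Of the lower genes, 162 (40.6%) changed more than 2-fold and 3 more than 10-fold. No library of one group overlapped the other group for 1262 of the 1264 higher genes and 395 of the 399 lower genes. Over all tested genes, 13.5% had the 3 IFNg libraries above the 3 Ctr libraries and 9.52% had them below. The higher genes together took 3.44% to 3.66% of counts in Ctr and 10.4% to 10.8% in IFNg, or 0.701% to 0.999% and 3.06% to 3.66% of TPM.

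When the fit took replicate number as a block, 2360 genes were higher (12.4%) and 1672 lower (8.8%), including every gene called without it. Counts of list members below stand beside these shares, or beside 6.65% higher and 2.1% lower without the block. The lower count also depended on single libraries: 399 became 172 without IFNg replicate 2, 214 without Ctr replicate 2 and 242 without Ctr replicate 3. Leaving out any one of the 6 libraries kept 802 of the 1264 higher genes past the threshold every time, and 140 of the 399 lower genes. The plot of change against level shows this asymmetry.

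**Figure D1:**
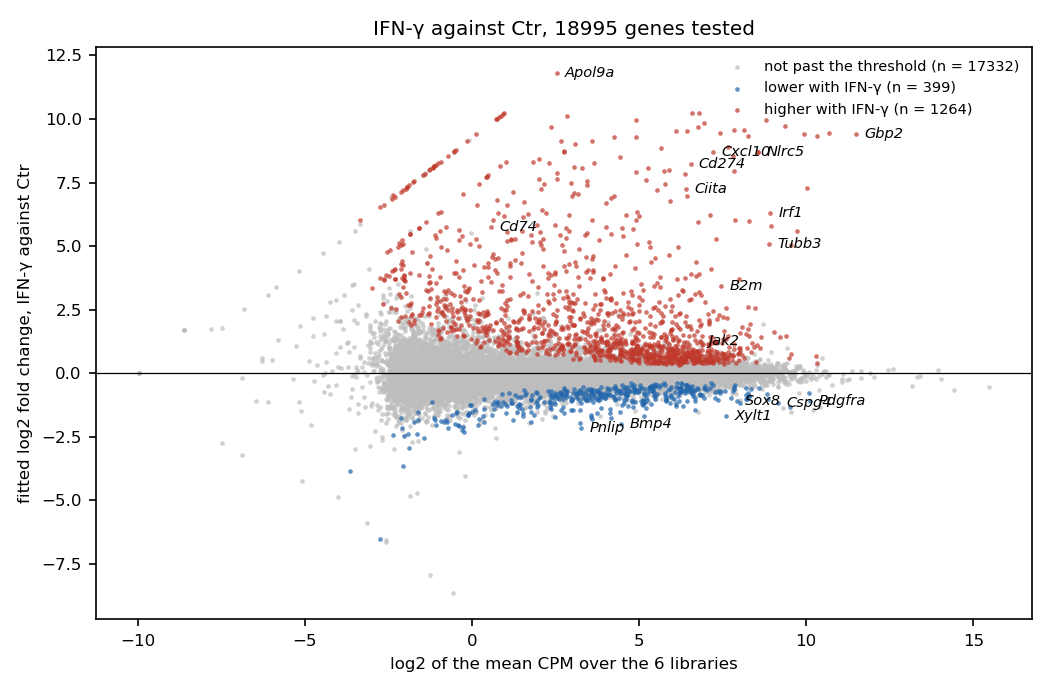
Each point is 1 of the 18995 genes tested, with its mean level over the 6 libraries on the x axis (log2 CPM) and its fitted log2FC, IFNg over Ctr, on the y axis. Called genes are coloured, and the 1264 higher genes reach far larger changes than the 399 lower genes. Some of the largest fitted values belong to genes with no counts in Ctr, whose fold is only known as a lower bound.

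Signaling genes came first in the order of roles. The receptor chains did not change by this test: Ifngr1 was at 22.3, 21.9 and 27.2 CPM in Ctr and 17.5, 22.1 and 24.1 CPM in IFNg, and Ifngr2 had an adjusted p of 0.368, or 0.018 with the replicate block at a log2FC of -0.42. None of the 13 tested receptor and JAK-STAT genes fell. Jak1 went from 73.5, 67.5 and 82.1 CPM to 161, 163 and 153 CPM, and Jak2 from 65.2, 63.2 and 71.7 CPM to 146, 139 and 200 CPM. Every treated library lay above every control library for both kinases, with log2FC of 1.10 ± 0.11 and 1.28 ± 0.17 (SE, 3 libraries per group). Stat2, a subunit of the type I interferon factor ISGF3, rose by a log2FC of 3.9 ± 0.15, and Stat3, known from IL-6 signaling, by 1.62 ± 0.11. Stat5b and Ifnar2 rose by 0.48 and 1.08, though Stat5b was not called without Ctr replicate 1, Ctr replicate 2 or IFNg replicate 2, while Tyk2, Stat5a, Stat6 and Ifnar1 did not pass the test.

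Genes that restrain the pathway rose as well. Socs1, which blocks JAK kinases, went from 1.13, 1.36 and 0.95 CPM to 117, 134 and 114 CPM, a log2FC of 6.77 ± 0.29. Usp18, which removes ISG15 and dampens type I signaling, rose by 6.03 ± 0.40, Socs2 by 4.56 ± 0.30, Cish by 2.54 ± 0.36 and Socs3 by 2.27 ± 0.24. These 5 were the called genes among 17 inhibitors, beside 6.65% higher of all tested genes. The replicate block called 8, beside 12.4% of all tested genes, adding Socs6, Socs7 and the phosphatase Ptpn1. The PIAS genes and Ptpn11 did not pass in either fit.

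Of 9 interferon regulatory factors, 6 rose. Irf1 was at 12.3, 11.5 and 12.1 CPM in Ctr and at 819, 1035 and 999 CPM in IFNg, a log2FC of 6.31 ± 0.16 with an adjusted p of 2.98e-10. Irf8, better known from myeloid cells, was at 1.99, 1.64 and 1.76 CPM in Ctr and at 531, 463 and 367 CPM in IFNg, a log2FC of 7.97 ± 0.25. The lowest treated library thus held 367 CPM against a control maximum of 1.99. Irf9, the DNA-binding subunit of ISGF3, rose by 3.71 ± 0.15, Irf7 by 3.14 ± 0.27, Irf5 by 4.21 ± 0.66 and Irf2 by 1.26 ± 0.25. Irf3 and Irf4 were among those that did not pass, with Irf3 at 43.4, 47.9 and 31.6 CPM against 36.8, 40.0 and 31.2 CPM.

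**Figure D2:**
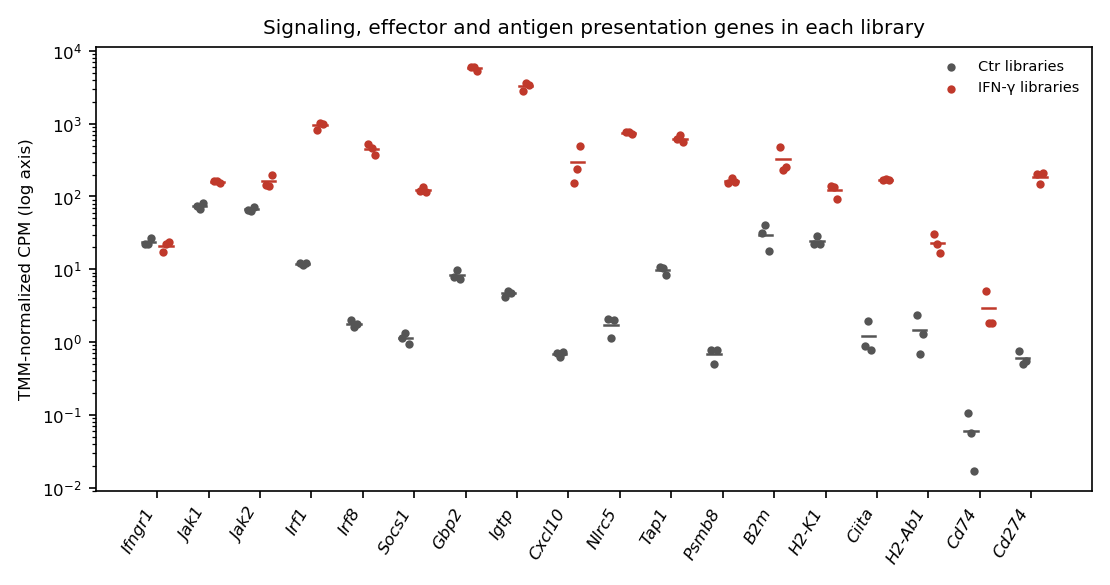
Level of 18 genes of the IFN-γ pathway and of antigen presentation in each of the 6 libraries (CPM on a log axis), with bars at the group means. Treated and untreated points overlap for the receptor gene Ifngr1 and are separate for the other 17, with the widest gaps for Gbp2, Igtp, Nlrc5 and Cxcl10.

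By level, the strongest products were 2 families of interferon-inducible GTPases, the guanylate-binding proteins (GBP) and the immunity-related GTPases (IRG), which attack vacuoles that hold intracellular pathogens. All 10 tested GBP genes (11 listed) and all 14 tested IRG genes (16 listed) rose, with median log2FC of 8.69 and 9.54. Gbp2b, Gm12187 and Irgc1 had too few counts to be tested. In TPM per library, the GBP genes together went from 7.18 to 16.4 in Ctr to 3140 to 3870 in IFNg, and the IRG genes from 6.62 to 13.2 to 3700 to 4680. Gbp2 had the highest mean TPM of all genes that rose more than 2-fold, at 1889. It was at 7.91, 9.94 and 7.45 CPM in Ctr and 5950, 5945 and 5306 CPM in IFNg, a log2FC of 9.41 ± 0.21. Next in TPM were Igtp at 1383, Irgm1 at 807, Gbp6 at 628 and Iigp1 at 584. Igtp went from 4.22, 5.03 and 4.8 CPM to 2824, 3611 and 3343 CPM, with no library of either group near the other group. Gbp4, Gbp9, Tgtp1 and Tgtp2 rose by log2FC of 9.95 ± 0.25, 8.00 ± 0.58, 9.56 ± 0.26 and 9.73 ± 0.25. Neighbouring members of both families are near copies of each other and in part overlap on the same strand (Gbp4 with Gbp8 and Gbp9, Igtp with Irgm2, Tgtp1 with Gm12185), so how reads are split among them is uncertain.

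Among genes that averaged 1 CPM or more over the 6 libraries and whose groups did not overlap, the 10 largest fitted rises included Apol9a, Gm4951, F830016B08Rik, Gm49730, Unc93a, Tnfrsf14, 9930111J21Rik1, Gm4070 and Calhm6. Of the 10, 7 had no count in Ctr, where the fitted value depends on the prior count and is no measure of the fold. With a floor of 3 counts per control library, Unc93a was at least 34.8-fold, Gm4070 at least 30.7-fold and Gm49730 at least 35.5-fold higher. Gm49730 lies within Parp14 on the same strand, so its reads cannot be told apart from those of Parp14. Gm4951, F830016B08Rik and 9930111J21Rik1 belong to the IRG list. 9930111J21Rik1 had 1 count over Ctr and 1910 over IFNg, a ratio of 1510 (interval 272 to 59900).

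MHC class I presentation gave calls among the genes for peptide cutting, transport and loading and for the heavy chains. All 5 inducible proteasome genes rose. Psmb8, a catalytic subunit of the immunoproteasome, went from 0.78, 0.51 and 0.78 CPM to 154, 180 and 156 CPM, a log2FC of 7.83 ± 0.22, and Psmb9 by 7.62 ± 0.27. Psmb10 and the activator subunits Psme1 and Psme2 rose by 3.82, 3.26 and 3.10. By contrast, 1 of 14 constitutive proteasome genes was called (Psma5, log2FC 0.68, adjusted p 0.0395), a share near the 6.65% of all tested genes, and the list median was 0.29. Psma5 was not called when any one of 5 of the 6 libraries was left out (it was called without IFNg replicate 1, when 2 members were). The replicate block called 6 of the 14 higher, where it called 12.4% of all tested genes.

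Nlrc5, the class I coactivator, was at 2.06, 1.13 and 2.04 CPM in Ctr and at 770, 772 and 723 CPM in IFNg, a log2FC of 8.71 ± 0.22. The peptide transporter genes Tap1 and Tap2 rose by 5.98 ± 0.26 and 5.30 ± 0.17, the loading factors Tapbpl and Tapbp by 5.18 and 3.91, and the peptide trimmer Erap1 by 3.21. Tap1 stood at 10.7, 10.6 and 8.23 CPM in Ctr and at 611, 688 and 558 CPM in IFNg. The general chaperones of the same loading complex did not pass: Calr was at 676, 773 and 550 CPM against 634, 571 and 585 CPM, and Canx and Pdia3 had log2FC of 0.08 and 0.07. B2m, the invariant light chain, went from 31.3, 40.9 and 17.7 CPM to 482, 232 and 255 CPM, a log2FC of 3.44 ± 0.42. Its spread between replicates was wide, yet the lowest treated library was far above the highest control.

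Of 15 tested class I heavy chain genes 11 rose and none fell, with a median log2FC of 2.47. The classical genes H2-K1 and H2-D1 rose by 2.33 ± 0.19 and 2.47 ± 0.15 from levels that were not low in Ctr (22.3, 28.7 and 22.4 CPM for H2-K1, against 137, 137 and 93.2 CPM). The nonclassical H2-T23, which encodes Qa-1, rose most, from 0.36, 0.90 and 0.65 CPM to 129, 97.7 and 98.1 CPM. H2-Q7 rose by 2.95 ± 0.30. H2-T24, H2-M5, Mr1 and Cd1d1 were not called, while the replicate block also called H2-T24 and Cd1d1 higher (adjusted p 0.00217 and 0.00456). The H2 genes are polymorphic and partly near-identical, so their separate values are uncertain.

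Most MHC class II genes that rose did so from near 0 in Ctr. Ciita, the class II coactivator, was at 0.89, 1.98 and 0.78 CPM in Ctr and 171, 171 and 166 CPM in IFNg, a log2FC of 7.25 ± 0.32. Below it, H2-Ab1 reached 30.6, 22.3 and 16.9 CPM from 2.38, 0.68 and 1.29 CPM, H2-Eb1 reached 15.8, 15.4 and 10.3 CPM and H2-Aa reached 8.68, 8.87 and 6.45 CPM. Cd74, the invariant chain, was at 0.106, 0.0565 and 0.017 CPM in Ctr and at 5.09, 1.84 and 1.82 CPM in IFNg, a log2FC of 5.75 ± 0.75. At 2.06 TPM, Cd74 lay far under the 374 TPM of B2m. H2-DMa, a peptide loading factor, was already at 6.67, 7.28 and 5.48 CPM in Ctr and reached 29.9, 23.8 and 18.5 CPM. Of the 10 tested genes of the list 7 rose, the exceptions being the constitutive regulators Rfx5, Rfxank and Rfxap, of which the replicate block called Rfx5 higher (log2FC 0.34, adjusted p 0.0387). Ctss, the protease that cuts the invariant chain in antigen-presenting cells, had no count in any of the 6 libraries. As an account of overlapping genes, Dexi lies opposite Ciita and Psmb9 opposite Tap1, and both rose.

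Among chemokines, the ligands of CXCR3, a receptor of activated T cells, rose from near absence. Cxcl10 was at 0.709, 0.621 and 0.729 CPM in Ctr and at 153, 239 and 493 CPM in IFNg, a log2FC of 8.72 ± 0.57. Cxcl9 had 2 counts in all Ctr libraries together and 1841 in IFNg, a ratio of 730 (95% counting interval 202 to 6030). Cxcl11 had no count in Ctr and 0.771, 1.07 and 0.91 CPM in IFNg, at least 8.41-fold higher with a floor of 3 counts per control library. The annotation used lists Cxcl11 as a polymorphic pseudogene. Cx3cl1, which draws microglia, was the only one of the called chemokines already high in Ctr, at 125, 97.9 and 87.4 CPM against 802, 597 and 434 CPM. The monocyte attractants Ccl2 and Ccl7 rose by 5.25 ± 0.84 and 5.85 ± 0.95, and both were lowest in IFNg replicate 2 (9 CPM for Ccl2, against 34.5 and 38.4). In all, 10 of 20 tested chemokine genes (34 listed) rose, and the replicate block added Cxcl1 (log2FC 2.93) as higher and Ccl25 (-0.37) as lower. Of the 10, Ccl8, Ccl11 and Ccl12 stayed under 1 CPM in every library and lost their call when single libraries were left out.

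Ligands that T cells read rose in part, 8 of 14 tested. Cd274, which encodes the inhibitory ligand PD-L1, went from 0.745, 0.508 and 0.56 CPM to 202, 147 and 207 CPM, a log2FC of 8.25 ± 0.24. Icam1, an adhesion molecule bound by the integrin LFA-1, rose by 6.02 ± 0.41. Tnfrsf14, the receptor HVEM, had no count in Ctr and 5.53, 3.65 and 1.73 CPM in IFNg, at least 33.4-fold higher. Lgals9, Vsir, Icosl, Cd47 and Pvr rose by smaller amounts. The costimulatory Cd80 was not called (0.532, 0.847 and 0.780 CPM against 1.07, 1.23 and 1.06 CPM), and Cd86 and Cd40 were too low to be tested. The replicate block also called the adhesion gene Vcam1 higher (log2FC 0.81). Without Ctr replicate 2, 5 of the 8 calls in this list were left.

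Secreted cytokines and their traps made a shorter list, with 8 of 13 tested genes higher. Csf1, a growth factor of microglia, went from 61.0, 56.4 and 61.1 CPM to 286, 256 and 245 CPM. Il18bp, which neutralizes IL-18, rose by 2.02 ± 0.18, Il15ra by 2.14 ± 0.23 and Il12rb1 by 3.94 ± 0.49. Tnfsf10, the death ligand TRAIL, had 2 counts over Ctr and 1111 over IFNg, a ratio of 441 (interval 122 to 3640). Il33 rose by 1.73 ± 0.41 but was called in 2 of the 6 fits that left out a library. The replicate block added Lif as higher (log2FC 1.07) and Tgfb2 as lower (-0.54). Ifng itself, Tnf, Il1rn and Il27 had no count in any of the 6 libraries, and Ifnb1 had 2 counts in IFNg replicate 1 alone.

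Genes usually linked with type I interferon rose nearly as a whole among those tested. Of 36 tested antiviral effectors (42 listed) 34 rose, with a median log2FC of 4.44 (4.28 with genes absent from Ctr set to their lower bound). Members at or near 0 in Ctr were tested only because treated libraries held enough counts. Ifit1, which binds foreign RNA caps, went from 0.461, 0.734 and 0.695 CPM to 118, 80.8 and 79.6 CPM, and Oasl2 by a log2FC of 7.91 ± 0.40. Rsad2, Bst2 and Mx1 rose by 4.32, 5.75 and 4.23. Isg20 and Ifitm2 were the exceptions, of which the replicate block called Isg20 higher (log2FC 1.07, adjusted p 0.0182), with Ifitm2 at 3.69, 4.63 and 4.61 CPM against 4.22, 2.42 and 5.62 CPM. All 16 genes of ISG15 conjugation, ubiquitin ligation and ADP-ribosylation rose, led in log2FC by Parp14 at 8.70 ± 0.31 and Isg15 at 8.11 ± 0.35. Rnf213, a giant ubiquitin ligase, reached 1460, 1350 and 1520 CPM from 33.5, 47.8 and 49.7 CPM. Of 19 tested nucleic acid sensors (28 in the annotation) 16 rose. Among them were the DNA sensor Zbp1 (log2FC 7.87 ± 0.74), the RNA sensors Ifih1 (4.62) and Ddx58 (3.44), and most tested genes of the Ifi200 cluster. Mavs, the adaptor of the RNA sensors, was not called (log2FC -0.25), and the replicate block added Ifi207. The OAS, SLFN, TRIM and Ifi200 genes sit in clusters of similar copies, so values of single members are uncertain.

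**Figure D3:**
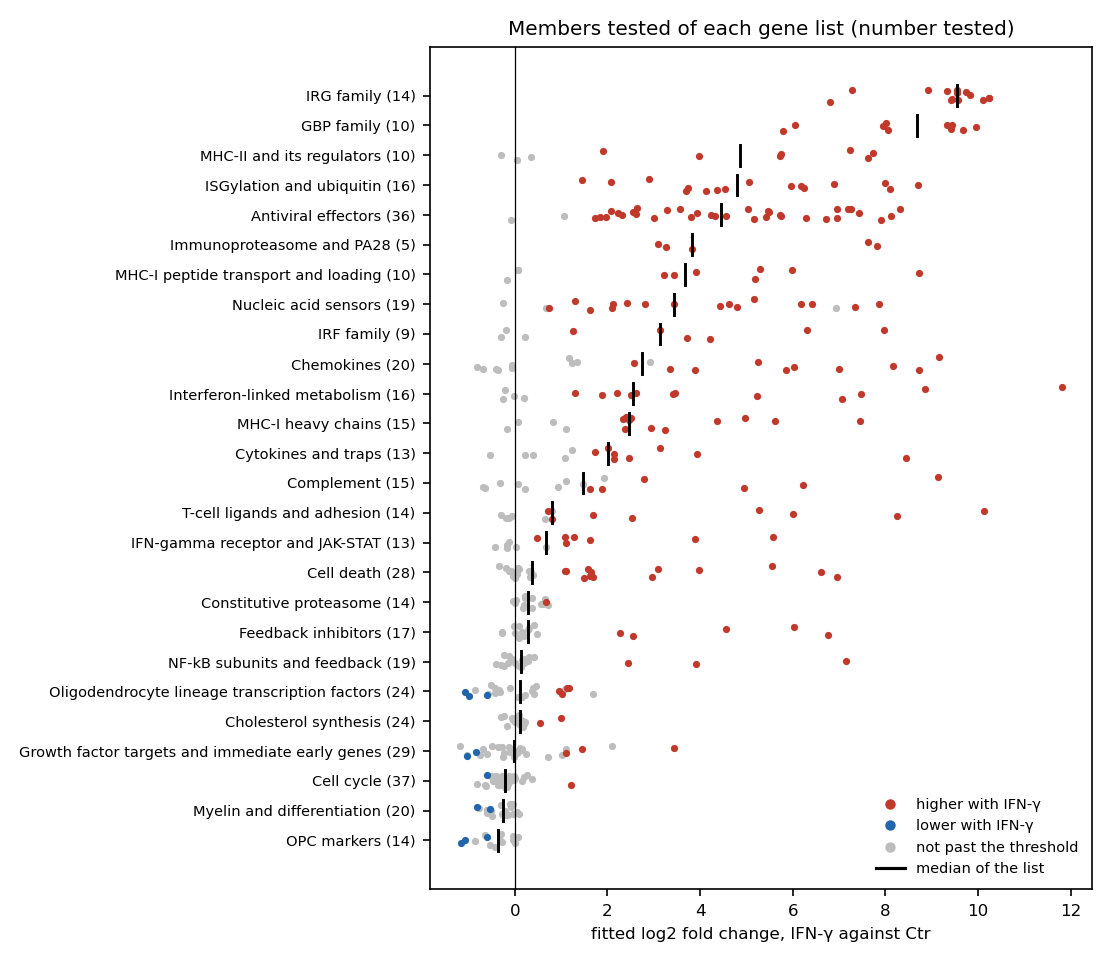
Fitted log2FC, IFNg over Ctr, of every tested member of each gene list, 1 row per list and sorted by the list median (bar). The IRG and GBP families lie at the top with all members far above 0, and the myelin, OPC marker and cell cycle lists lie at the bottom with medians a little below 0.

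Death and inflammatory pathways responded at chosen points. Of 28 tested cell death genes 13 rose and none fell, beside 6.65% higher and 2.1% lower of all tested genes. The replicate block added Casp2 as higher (log2FC 0.33). Mlkl, the executioner of necroptosis, rose by 6.96 ± 0.22 from 0.284, 0.395 and 0.271 CPM to 40.8, 33.9 and 39.3 CPM, while its activating kinase Ripk3 stayed under 1 CPM in all libraries. The pyroptosis genes Casp1, Casp4 and Gsdmd rose from under 1 CPM to 2.81 to 6.96, 2.98 to 5.49 and 3.43 to 4.61 CPM. Fas and Tnfrsf1a, both death receptors, rose by 2.97 ± 0.24 and 1.65 ± 0.13, and so did Cflar, an inhibitor of the same route, by 1.57 ± 0.13. Bax, Bak1 and Mcl1 were not called. Of 19 tested NF-κB genes, Tnfaip3 (3.92 ± 0.22), Bcl3 and Birc3 rose, beside 6.65% of all tested genes. The replicate block called 6 higher, adding Nfkb1, Nfkbia and Ikbkb at log2FC of 0.29, 0.41 and 0.30. It called Relb lower at -0.40, where it called 12.4% higher and 8.8% lower of all tested genes. Bcl3 had 3 counts over Ctr and 545 over IFNg, a ratio of 144 (interval 49.0 to 701). Rela, the main NF-κB subunit, was not called in either fit.

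Complement and metabolism followed. Of 15 tested complement genes 6 rose, beside 6.65% of all tested genes. C4b went from 6.42, 3.11 and 3.9 CPM to 170, 110 and 138 CPM. The C1 inhibitor gene Serping1 went from at most 0.113 CPM to 26.8, 20.8 and 24.7 CPM. C3 was not called, and the replicate block added Cfb and C3ar1 (log2FC 1.47 and 1.93). Of 16 tested genes of interferon-linked metabolism 12 rose. Wars, a tryptophan tRNA ligase, reached 557, 581 and 445 CPM from 84.1, 84.1 and 91.9 CPM, and Ido1, which degrades tryptophan, reached 1.64, 1.39 and 1.45 CPM. Nampt, an enzyme of NAD synthesis, rose by 2.21 ± 0.18 and Ch25h, which makes an oxysterol, by 7.06 ± 0.58. Of 24 cholesterol synthesis genes, Hsd17b7 (0.99 ± 0.16) and Ebp (0.54 ± 0.15) were called, a share near the 6.65% higher of all tested genes. Ebp lost its call whenever a library was left out. The replicate block called the same 2 higher and Mvk lower (-0.24), where it called 12.4% higher and 8.8% lower of all tested genes.

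A further list held other genes that the study names for its other assays, and 6 of the 8 tested rose. Serpina3f, a protease inhibitor gene, went from 0.177, 0.226 and 0.271 CPM to 189, 161 and 171 CPM. Bach1, a repressor of heme oxygenase and other genes, rose by 1.01 ± 0.16, from 49.6, 51.2 and 56.5 CPM to 99.2, 119 and 98.8 CPM. Its known target Hmox1 was not called (180, 72.0 and 171 CPM against 248, 83.0 and 271 CPM) except with the replicate block, with an adjusted p of 0.0452.

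Promoters of 5 strong responders are shown, chosen because they carry letters of the elements named above. The 5 genes were taken in order of fitted log2FC among the named genes that have a RefSeq promoter entry (GRCm38.p6) with a motif before the start. Each line gives the 250 bases before the annotated start, 5′ to 3′ on the gene's strand, with matches to GAS (TTCNNNGAA) or to the ISRE core (GAAA, any 2 bases and GAAA again, on either strand) in capitals. Apol9a lies at chr15:77411081-77411330, Tnfrsf14 at chr4:154928078-154928327, Calhm6 at chr10:34127973-34128222, Tgtp2 at chr11:49064213-49064462 and Tgtp1 at chr11:48992247-48992496, all on the minus strand.
Apol9a: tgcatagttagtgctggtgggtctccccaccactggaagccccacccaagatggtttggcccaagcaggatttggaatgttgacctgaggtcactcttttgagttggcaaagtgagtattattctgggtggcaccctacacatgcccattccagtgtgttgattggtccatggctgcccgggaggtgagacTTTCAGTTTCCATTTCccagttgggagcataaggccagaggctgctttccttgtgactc
Tnfrsf14: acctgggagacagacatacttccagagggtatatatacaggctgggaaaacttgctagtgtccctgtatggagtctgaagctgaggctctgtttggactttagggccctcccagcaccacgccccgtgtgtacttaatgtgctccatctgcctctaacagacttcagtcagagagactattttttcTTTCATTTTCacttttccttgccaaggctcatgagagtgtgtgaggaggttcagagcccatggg
Calhm6: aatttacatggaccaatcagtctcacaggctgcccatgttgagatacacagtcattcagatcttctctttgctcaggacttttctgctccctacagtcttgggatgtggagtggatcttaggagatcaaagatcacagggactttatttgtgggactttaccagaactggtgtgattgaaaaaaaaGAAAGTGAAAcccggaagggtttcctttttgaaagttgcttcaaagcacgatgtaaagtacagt
Tgtp2: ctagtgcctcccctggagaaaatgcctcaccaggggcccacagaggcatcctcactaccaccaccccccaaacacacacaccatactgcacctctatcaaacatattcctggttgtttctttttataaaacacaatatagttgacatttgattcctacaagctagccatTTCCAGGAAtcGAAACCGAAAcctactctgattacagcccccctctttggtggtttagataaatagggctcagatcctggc
Tgtp1: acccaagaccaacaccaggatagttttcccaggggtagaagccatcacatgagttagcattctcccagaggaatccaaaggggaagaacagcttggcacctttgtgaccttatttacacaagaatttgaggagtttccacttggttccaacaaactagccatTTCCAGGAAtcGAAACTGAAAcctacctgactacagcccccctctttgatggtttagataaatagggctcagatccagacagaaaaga

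In Apol9a the capitals are 2 overlapping ISRE core matches that begin 59 and 53 bases before the start. Tnfrsf14 and Calhm6 each hold 1 ISRE core match that begins 64 bases before it, in opposite orientations. The near-identical paralogs Tgtp2 and Tgtp1 hold a GAS match followed by an ISRE core match, beginning 81 and 70 bases before the start in Tgtp2 and 88 and 77 bases before it in Tgtp1. Apol9a was absent from Ctr and at 12.4, 10.5 and 11.9 CPM in IFNg, at least 106.5-fold higher, with the closely similar Apol9b also higher. Calhm6 had no count in Ctr and 2.85, 2.48 and 4.54 CPM in IFNg, at least 30.2-fold higher. A match is a description of these letters and not a binding site.

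Over all genes, 898 of the 1264 higher genes (71.0%), 296 of the 399 lower genes (74.2%) and 11959 of the tested gene symbols (63.0%) had an entry in the promoter table, which is too few for a check over the sets, and such a check is void. Among the entries present, over windows of 250 bases before to 50 after the start, either motif occurred in 22.9% of higher genes, 8.11% of lower genes, 11.4% of tested genes and 11.3% of all 32851 promoters in the table. The ISRE core alone was in 12.8%, 1.35%, 3.73% and 3.44%, and GAS in 13.4%, 6.76%, 8.23% and 8.30%. Of 309 genes more than 10-fold higher, 186 (60.2%) had an entry and 32.3% of those held the ISRE core. With this coverage, no difference between the sets is read from these shares.

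The genes that rose were in part neighbours in the genome (GRCm38, fixed windows of 1 Mb). The window with most was the MHC class II and class III region at 34 to 35 Mb of chromosome 17, where 15 of 46 tested genes rose, among them Psmb9, Psmb8, Tap1, Tap2, H2-Ab1, H2-Aa, H2-Eb1, C4b and C2. The Ifit cluster on chromosome 19 (34 to 35 Mb) had 9 of 15 and a window with Jak2, Cd274 and Il33 (29 to 30 Mb) had 9 of 18. The window of Ciita and Socs1 on chromosome 16 (10 to 11 Mb) had 8 of 10, the Irgm1 and Tgtp1 window on chromosome 11 (48 to 49 Mb) 8 of 13 and the Gbp window on chromosome 5 (105 to 106 Mb) 8 of 14. None of these held a gene that fell. In all, 30 windows had at least 5 genes that rose, and 1519 windows with tested genes had none.

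At the level of transcripts, Tap1 and Ciita each had forms with no count in Ctr. The leading form Tap1-206 took 77.9% to 85.9% of Tap1 counts in Ctr and 80.1% to 82.8% in IFNg, while Tap1-201 had no count in Ctr and 3.29%, 3.32% and 4.8% of Tap1 counts in IFNg. For Ciita, transcript Ciita-201 took 53.6% to 78.0% and 59.1% to 68.0%. Transcript Ciita-203, whose start lies at base 10489781 of chromosome 16, had no count in Ctr and 23.8%, 27.0% and 31.3% of Ciita counts in IFNg. Ciita had few counts in Ctr to set this against, 106 over the 3 libraries, and no test was run on these shares.

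The falls were smaller, and they touched OPC identity genes. Pdgfra, the PDGF receptor that defines OPCs and drives their division, was at 1290, 1310 and 1920 CPM in Ctr and at 677, 536 and 934 CPM in IFNg, a log2FC of -1.07 ± 0.24 with an adjusted p of 0.0141. Cspg4, which encodes the proteoglycan NG2, was at 769, 783 and 824 CPM in Ctr and at 449, 269 and 349 CPM in IFNg, a log2FC of -1.16 ± 0.20 with an adjusted p of 0.00245. For both, the highest treated library was below the lowest control. The sialidase gene Neu4 fell by 0.59 on the log2 scale. Of the fits that left out a library, the one without Ctr replicate 2 alone kept the Neu4 call. These were the 3 called of 14 OPC marker genes, beside 2.1% lower of all tested genes, and the median of the list was -0.37. Ptprz1, Lhfpl3 and Pcdh15 had log2FC between -0.04 and 0.01, and Olig1, Olig2 and Sox10 were not called. The replicate block called 7 of the 14, adding Vcan, Gpr17, C1ql1 and Olig2 at log2FC of -0.53, -0.64, -0.85 and -0.42. It called 8.8% of all tested genes lower. Without IFNg replicate 1, IFNg replicate 2 or Ctr replicate 3, 1 of the 3 calls was left, and Pdgfra lost its call in each of these fits.

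Transcription factors of the lineage moved in both directions, 4 higher and 3 lower of 24 tested, beside 6.65% and 2.1% of all tested genes. The replicate block called 8 higher and 6 lower, beside 12.4% and 8.8% of all tested genes. Sox8 and Sox6, SOX factors of the oligodendrocyte lineage, fell: Sox8 was at 372, 387 and 232 CPM against 211, 148 and 113 CPM (log2FC -1.07 ± 0.27, adjusted p 0.027), and Sox6 at 436, 412 and 525 CPM against 307, 275 and 329 CPM (log2FC -0.59 ± 0.13). The Sox8 call held in 2 of the 6 fits that left out a library, namely without IFNg replicate 1 and without Ctr replicate 3, and its antisense neighbour 2810468N07Rik fell too. The third called fall was St18 (log2FC -0.98 ± 0.23), which kept its call in the same number of those fits. Id3, an inhibitor of differentiation factors, went from 71.0, 78.9 and 106 CPM to 124, 255 and 178 CPM, and Prox1, Bach1 and Zfp536 also rose. Counts of higher members were 2 without Ctr replicate 1, Ctr replicate 2 or IFNg replicate 2. Counts of lower members were 0 without IFNg replicate 2 and 1 without Ctr replicate 1, Ctr replicate 2 or IFNg replicate 3.

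Most myelin genes were not called by this test at 6 h, and 2 showed weak falls. Mbp, which encodes myelin basic protein, was at 814, 957 and 663 CPM against 738, 705 and 645 CPM. Bcas1, a marker of early myelinating cells, was at 1450, 932 and 782 CPM against 1400, 689 and 853 CPM. In both of these the groups overlapped. Of 20 tested genes, Ugt8a (log2FC -0.53) and Gpr37 (-0.81) were called lower, beside 2.1% of all tested genes. Both calls were lost without Ctr replicate 1, IFNg replicate 1, IFNg replicate 2, Ctr replicate 3 or IFNg replicate 3, and 1 was left without Ctr replicate 2. Myrf, the master factor of myelination, was at 74.8, 45.1 and 33.9 CPM against 57.5, 30.8 and 19.7 CPM. It was lower in IFNg within each replicate number and was called with the replicate block only, at an adjusted p of 0.0344. The block called 5 of the 20 lower, beside 8.8% of all tested genes. Gal3st1 was among them (log2FC -0.60, adjusted p 0.00111 with the block).

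**Figure D4:**
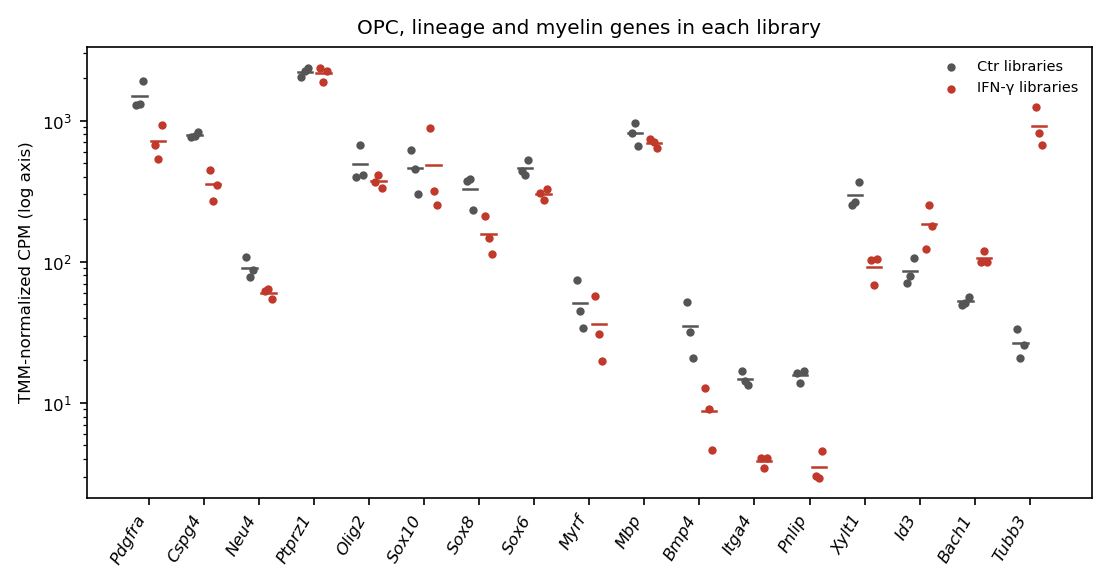
Level of 17 genes of the oligodendrocyte lineage, of the largest falls and of Tubb3 in each of the 6 libraries (CPM on a log axis), with bars at the group means. Pdgfra, Cspg4, Bmp4, Itga4, Pnlip and Xylt1 lie lower in all 3 treated libraries, the points of Mbp overlap between the groups, and Tubb3 lies far higher in all 3.

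Under the same limits on level and overlap, the 10 largest fitted falls were led by Pnlip, a lipase gene, which went from 16.4, 13.9 and 17.0 CPM to 3.05, 2.96 and 4.57 CPM (log2FC -2.15 ± 0.20, adjusted p 1.70e-05). Bmp4, a morphogen that OPCs secrete and that blocks their maturation, went from 52.3, 32 and 20.7 CPM to 12.7, 9 and 4.64 CPM. Itga4, an integrin chain, went from 16.8, 14.3 and 13.4 CPM to 4.06, 3.44 and 4.10 CPM, with log2FC of -1.94 ± 0.21. The remaining 7 were Sstr2, I730030J21Rik, Fam20a, Lrrn4, Col19a1, Asb18 and Ppp1r3c, with log2FC from -2.05 to -1.75. Of all 10, Fam20a kept its call in 2 and Asb18 in 3 of the fits that left out a library, and the others in all 6. Xylt1, Csgalnact1, Jag1 and Wnt7a also fell and were chosen after their values were seen. Xylt1, which starts glycosaminoglycan chains, went from 253, 264 and 369 CPM to 103, 68.4 and 105 CPM, and Csgalnact1, an enzyme of chondroitin sulfate synthesis, from 28.2, 25.6 and 24.7 CPM to 7.67, 10.2 and 8.65 CPM. The Notch ligand Jag1 and the Wnt ligand Wnt7a fell by 1.08 and 1.38 on the log2 scale.

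Growth factor targets gave calls in both directions, and cell cycle genes gave few by this test. Of 29 growth factor targets and immediate early genes, Jun, Fosl2 and Atf3 rose (log2FC 1.10, 1.44 and 3.43) and Etv4 and Fosb fell (-1.02 and -0.83). Both shares lie above the 6.65% higher and 2.1% lower of all tested genes. Etv4, a target of FGF signaling, was at 60.2, 98.5 and 65.3 CPM against 34.1, 38.4 and 37.6 CPM. The replicate block called 6 higher and 8 lower, with Spry4, Etv5, Dusp1 and Dusp6 among the latter. Over all tested genes it called 12.4% higher and 8.8% lower. Lower calls numbered 1 without Ctr replicate 1, Ctr replicate 2, IFNg replicate 2 or IFNg replicate 3, and 4 without IFNg replicate 1. Of 37 cell cycle genes, Cdk6 rose (log2FC 1.21 ± 0.26) and E2f1 fell (-0.61 ± 0.15), with a list median of -0.21, shares that are below or near the 6.65% higher and 2.1% lower of all tested genes. Mki67, a proliferation marker, was at 362, 619 and 584 CPM against 272, 338 and 523 CPM and was not called. The block called 12 lower, where it called 8.8% of all tested genes lower, among them Mki67 and the replication licensing genes Mcm2, Mcm4 and Mcm5, and all of these moved less than 2-fold. The Cdk6 call was lost without Ctr replicate 1, IFNg replicate 2 or Ctr replicate 3. Lower cell cycle calls numbered 2 without Ctr replicate 1, 4 without IFNg replicate 3 and 0 without any one of the other 4 libraries.

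Among the 10 highest by TPM of the genes that rose more than 2-fold, 1 was outside the immune lists. Tubb3, a tubulin used as a marker of neurons, was at 33.6, 20.7 and 25.9 CPM in Ctr and at 1256, 822 and 669 CPM in IFNg, a log2FC of 5.10 ± 0.36 with an adjusted p of 1.24e-06. Its mean in IFNg was 417 TPM, next to 441 TPM for Irf1 and 374 TPM for B2m. Nearly all of its counts fell on the full-length transcript Tubb3-201 (at least 99.9% in each library), and Gm20388, which overlaps it on the same strand, had a mean of 49.3 CPM in Ctr and 79.0 CPM in IFNg. The 10 neuron markers summed to 25.6 to 32.3 TPM in Ctr and 307 to 588 TPM in IFNg, and without Tubb3 the other 9 summed to 16.7 to 22.1 TPM and 18.4 to 52.3 TPM. Of these, Syt1 (log2FC 2.03 ± 0.29) and Stmn2 (2.85 ± 0.52) also rose. Rbfox3, a defining marker of mature neurons, was at 1.95, 2.31 and 1.07 CPM against 1.27, 1.49 and 0.972 CPM, and Snap25 at 11.2, 10.2 and 12 CPM against 12.7, 8.82 and 9.75 CPM, neither called. In all 7 of the 10 were not called, of which the replicate block called Nefl higher (log2FC 0.94). Slc17a6 and Slc17a7 stayed under 0.2 CPM in all 6 libraries. Of 6 tested pericyte or fibroblast markers, Kcnj8 and Lum rose, each from under 0.2 CPM to at most 1.82 CPM, and the list summed to 3.66 to 6.04 TPM and 7.10 to 11.7 TPM.

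The same 6 h treatment was also applied to cells that had received the EZH2 inhibitor EPZ011989 at 1.5 µM for 4 days, in 6 other libraries of the series. There 5.9% of tested genes were called higher and 2.17% lower. Of the 1264 genes higher without inhibitor, 1017 (80.5%) were also called higher in those libraries, which is 90.8% of that list, and 1263 had the same sign. Of the 399 lower genes, 279 (69.9%, and 67.6% of the other list) were called again, and 397 had the same sign. With the replicate block the shared counts were 1782 and 1127. The shared lower count was 146 without IFNg replicate 2 and 175 without Ctr replicate 3. Ciita had a log2FC of 7.28 in those libraries beside 7.25 here, and Tubb3 5.21 beside 5.10. Falls recurred too, with Pdgfra at -1.20 beside -1.07, Cspg4 at -1.13 beside -1.16, Sox8 at -1.10 beside -1.07 and Xylt1 at -2.01 beside -1.68, all called. Id3 and E2f1 were not called there. The interaction test, which asks directly whether the response differed, called 0 genes in edgeR and 0 in DESeq2. In edgeR, 127 of the 18995 tested genes had an unadjusted p under 0.05. This is well below the share of 0.05 that such a cut passes when no gene differs. The test was thus conservative here, and its 0 calls cannot show that the responses were equal. A difference that misses this threshold is not shown to be absent.

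**Figure D5:**
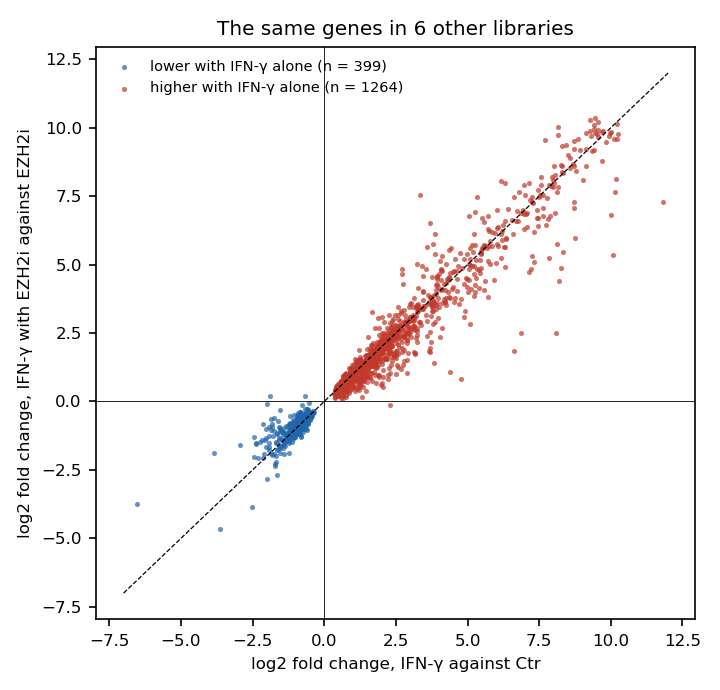
Fitted log2FC of IFN-γ without EZH2i (x axis) against that with EZH2i in 6 other libraries (y axis) for the 1264 higher and 399 lower genes, with the line of equality dashed. All but 3 of these genes keep their sign (1263 of 1264 and 397 of 399).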

How the data were processed

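The authors quantified reads of stranded total RNA libraries with Salmon 0.8.2 and deposited, for each library and transcript, an estimated count and a TPM value. The estimated counts as deposited are not scaled, while the deposited TPM are divided by effective length and scaled to a constant sum per library. The submitters' processing notes also name STAR and DESeq2. All 141862 transcripts matched GENCODE M21 (Ensembl 96) of GRCm38, although the study's methods name an older Ensembl release. The authors also deposited DESeq2 tables of their own comparisons of EZH2i, which were not used.

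The rounded sum of a gene's estimated counts was its count, for 55536 genes. In R 4.3.3, edgeR 4.0.16 (TMM factors, filterByExpr, quasi-likelihood test) was fitted once over all 12 libraries with group as the only term, and the contrast IFNg minus Ctr was tested on 18995 genes with a Benjamini-Hochberg adjusted p threshold of 0.05. The 4 groups share 1 estimate of the spread. DESeq2 1.42.0, RLE factors, other filters, length-scaled counts, fewer libraries, a replicate block and each library left out were alternatives, of which the block within only the 6 libraries was added after seeing the data.

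Pairing by replicate number was checked on deviations from the group means (log2 CPM, pseudocount 0.5). The Ctr and IFNg libraries of replicates 1, 2 and 3 correlated at 0.627, 0.105 and 0.652, all above 0.1, so the replicate block is given beside the counts and calls that it changes. The value for replicate 2 was close to this limit and fell to 0.0909 at a pseudocount of 0.1.

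Named genes were those the study names for IFN-γ in OPCs, the 10 largest rises and falls (mean level 1 CPM or more, groups not overlapping), the 10 highest by TPM among those more than 2-fold higher, and list members. Some genes picked this way are not reported here. The comparison, 27 gene lists and 8 marker lists were chosen with earlier results of these data known. Lists are described by counts and medians, with no set test. Counting intervals are exact 95% intervals and, like the floor of 3 counts, cover counting error only. Promoters came from a RefSeq table of GRCm38.p6, matched by symbol.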

Additional observations from a re-analysis of the deposited data

How the results depend on the processing

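Of 510 genes followed through the alternatives, 398 kept their side of the threshold in every one that gave a value, and 0 reversed direction. The count of higher genes was 897 to 1164 with 1 library left out and 2360 with the replicate block. The count of lower genes was 172 to 295 with 1 library left out (214 without Ctr replicate 2, 172 without IFNg replicate 2, 242 without Ctr replicate 3), 629 with DESeq2, 1672 with the block, 227 with only the 6 libraries compared, 1177 with both of these and 162 above an absolute log2 fold change of 1. Genes higher both without and with EZH2i numbered 822 to 937 with 1 library left out and 1782 with the block, and genes lower in both 146 to 237, 1127, 444 with DESeq2 and 96 above a log2 fold change of 1. The interaction count was 0 in every setting run. The share of higher genes with a promoter motif, 22.9%, was 18.8% over the 250 bases before the start and 28.1% with a GAS spacing of 3 or 4. The causes of these shifts were not tested. A cut on fold change and a window of fewer bases lower a count or share by construction. Another scaling moved the median log2 fold change of all genes to between -0.02 and 0.00. Under a filter of at least 10 counts in every library, most chemokines and antiviral genes could not be tested, since they were near 0 in Ctr. The same held for a part of the GBP genes. Genes under 1 CPM in Ctr have folds limited by the depth of those libraries.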

Other observations

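Some genes of other lineages went from near absence to low levels with IFN-γ, and these were chosen after their values were seen. Tbx21, the T-box factor known from type 1 helper T cells and natural killer cells, had 3 counts over the Ctr libraries and 1557 over IFNg, at 21.1, 12.1 and 7.28 CPM in the treated libraries, a ratio of 412 (95% counting interval 141 to 2000). Il21, a cytokine known from T cells, had 2 counts against 153, a ratio of 60.7 (16.5 to 506). Both were called (adjusted p 4.02e-06 and 7.33e-04, edgeR's quasi-likelihood test). Of the 8 T and NK cell markers, 4 had no count in any of the 6 libraries (Cd3d, Cd3e, Cd3g and Nkg7). Only 1 of the 8 had enough counts to be tested, and it was not called. The list summed to 0.0575 to 0.289 TPM in Ctr and 0.044 to 0.366 TPM in IFNg. The source of the Tbx21 and Il21 transcripts was not tested.

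Sst, the somatostatin gene, had 1 count over Ctr and 269 over IFNg, a ratio of 213 (38.0 to 8460), and its receptor gene Sstr2 was among the 10 largest falls of genes that averaged 1 CPM or more and whose groups did not overlap, at 2.31, 1.81 and 1.39 CPM in Ctr and 0.34, 0.61 and 0.37 CPM in IFNg. Mc1r, the melanocortin receptor gene, went from 0.035, 0.17 and 0.20 CPM to 3.28, 2.85 and 1.88 CPM; it lies directly beside Tubb3 on chromosome 8. Ly6a, which encodes the surface protein Sca-1, had 3 counts against 1836, a ratio of 485 (166 to 2360), and Slamf8, a myeloid surface receptor gene, had 2 against 923, a ratio of 366 (101 to 3030). For each of these genes other than Sstr2 the 3 treated libraries lay above the 3 controls, and for Sstr2 they lay below.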
